A study of Mus musculus with 20 samples.

Results

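Genes of the ATF4 stress response and of serine synthesis were followed in mouse intestinal tissue: Atf4, Ddit3, Trib3, Chac1, Sesn2, Asns, Phgdh, Psat1, Shmt2 and Mthfd2. They are 10 of the 25035 gene symbols named on the array and were taken with all 17 probes that carry their names. RNA from 20 pieces of tissue was hybridised to 1-colour Agilent microarrays, 1 array a sample, in 2 experiments. In the first, C57BL6/j mice aged 8 to 12 weeks were given tamoxifen on 3 days, 2 mg each time, and intestinal tissue was collected 3 days later. Cre control mice (n = 6) carried VillinCreER alone, a tamoxifen-inducible recombinase driven in the gut epithelium, and BRAFV600E mice (n = 6) carried in addition 1 copy of the inducible BrafV600E-LSL allele, which yields the constantly active kinase in cells where the recombinase acts. In the second, C57BL6/j mice with VillinCreER and the mutant allele received 2 injections of 100 µl tamoxifen at 10 mg/ml. They then received 3 daily injections of the MEK inhibitor PD184352 (MEKi, n = 4) or of its carrier of DMSO and Cremophor (Vehicle, n = 4). The methods give 8 to 12 weeks as the age at induction in general, and the legends 3 days of mutant expression. That these mice carried the allele is stated in the methods and legends of the study, not in the labels. The samples were whole tissue, so more RNA per cell and more cells of a type that holds the RNA cannot be told apart.

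ATF4 is a transcription factor whose protein is made when the initiation factor eIF2 alpha is phosphorylated by kinases that sense amino acid shortage, misfolded protein, double-stranded RNA or haem deficiency. It binds composite C/EBP-ATF response elements and turns on genes for amino acid uptake and synthesis, and under lasting stress also Ddit3 (CHOP), Trib3 and Chac1. Because ATF4 is controlled largely at translation, the level of its mRNA is no measure of its protein. Serine synthesis runs from a glycolytic intermediate through Phgdh, Psat1 and Psph, and Shmt2 and Mthfd2 then pass the serine carbon to mitochondrial folate. These enzymes supply nucleotide synthesis in growing cells, and BRAF acts upstream of MEK and ERK, which promote growth.

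The response element core was looked for in the 250 bases before each gene's start, as RefSeq gives it on GRCm38.p6, where all 10 genes had a window. The letters searched were TGATGNAA on both strands, and 3.45% of the 32851 promoter windows of the same length held them. They were present in the windows of 2 genes, Asns and Chac1, once each. The windows of the 3 enzymes that rose in BRAFV600E tissue and of the 2 genes with a match are shown, 5′ to 3′ on the gene's strand, so that both can be read against the values that follow. Capitals mark the match, which begins 23 bases before the start in Asns on the gene's strand and 193 bases before it in Chac1 on the other strand.
Phgdh, chr3:98339970-98340219, minus strand: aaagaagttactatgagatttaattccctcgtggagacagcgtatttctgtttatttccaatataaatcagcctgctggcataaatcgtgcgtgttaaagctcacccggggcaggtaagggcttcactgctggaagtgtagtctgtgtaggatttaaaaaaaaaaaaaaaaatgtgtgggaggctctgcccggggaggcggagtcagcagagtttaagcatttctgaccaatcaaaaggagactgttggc
Psat1, chr19:15925060-15925309, minus strand: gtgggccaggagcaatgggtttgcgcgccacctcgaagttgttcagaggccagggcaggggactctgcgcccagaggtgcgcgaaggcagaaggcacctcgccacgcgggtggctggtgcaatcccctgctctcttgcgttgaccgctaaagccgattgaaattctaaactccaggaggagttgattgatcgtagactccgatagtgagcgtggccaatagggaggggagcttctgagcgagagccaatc
Shmt2, chr10:127522445-127522694, minus strand: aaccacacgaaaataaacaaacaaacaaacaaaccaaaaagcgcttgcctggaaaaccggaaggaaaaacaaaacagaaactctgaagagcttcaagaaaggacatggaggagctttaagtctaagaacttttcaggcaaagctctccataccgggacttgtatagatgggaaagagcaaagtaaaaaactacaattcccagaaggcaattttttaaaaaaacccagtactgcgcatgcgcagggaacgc
Asns, chr6:7693210-7693459, minus strand: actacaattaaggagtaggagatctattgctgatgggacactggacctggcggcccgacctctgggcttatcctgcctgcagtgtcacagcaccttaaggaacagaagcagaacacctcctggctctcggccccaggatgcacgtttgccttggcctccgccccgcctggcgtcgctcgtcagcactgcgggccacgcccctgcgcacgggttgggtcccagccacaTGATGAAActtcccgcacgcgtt
Chac1, chr2:119350992-119351241, plus strand: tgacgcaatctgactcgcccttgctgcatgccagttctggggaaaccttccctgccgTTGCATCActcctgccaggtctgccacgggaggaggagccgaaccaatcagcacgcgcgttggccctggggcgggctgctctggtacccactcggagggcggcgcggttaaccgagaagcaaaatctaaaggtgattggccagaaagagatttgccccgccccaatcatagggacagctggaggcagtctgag
No match in the windows of Phgdh, Psat1 (both of its starts), Shmt2, Mthfd2, Atf4, Ddit3, Trib3 and Sesn2 says only that these letters are not in those 250 bases.

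Levels are given as log2 processed intensity minus the 75th percentile of the array, so 0 is the brightness of the spot at that percentile. The level of one gene cannot be set against that of another, since each depends on its probe. A gene with several probes is represented by its brightest one, and a gene was called where its adjusted p from limma was under 0.05. Of the 12 arrays of the first experiment, the 6 Cre control arrays and BRAFV600E 1 and 2 shared a slide, and BRAFV600E 3 to 6 lay on another, where the slope of the spike-in controls was listed at 0 against 0.759 to 1.08 on the other arrays. The MEKi and Vehicle arrays shared the remaining slide, in separate rows. All 8 genes of a list of ERK output genes were higher in BRAFV600E, 7 of them called, and all 8 were lower under MEKi, 4 of them called. Vehicle 2 stood apart from the other arrays: the mean level of 8 exocrine pancreas genes was 7.757 there and between -4.886 and -4.173 on the other 7 arrays of that experiment. Braf itself was measured at -0.82 ± 0.34 in Cre control and -0.39 ± 0.35 in BRAFV600E (SD, n = 6 each), with an adjusted p of 0.172, and whether its probe separates the mutant from the normal allele was not tested.

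In BRAFV600E tissue the serine synthesis enzymes Phgdh and Psat1 rose, as did Shmt2, which uses serine, and the stress effectors did not pass the test. Psat1, Shmt2 and Phgdh were called higher, 3 of the 10 genes, and none was called lower. Over all 19034 genes tested in this comparison, 6.19% were called higher, 6.27% lower and 12.5% in either direction. The median log2 fold change of the 10 genes was 0.16, against -0.02 over all genes tested, and 6 of the 10 were above 0. The mean level of the 10 genes was 0.946 ± 0.107 on the Cre control arrays and 1.27 ± 0.159 on the BRAFV600E arrays (SD, n = 6 each). Those means ranged from 0.819 to 1.103 and from 1.03 to 1.43, so the groups overlapped.

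Psat1, the aminotransferase of the second step of serine synthesis, changed the most. Its level ran from -0.96 to -0.23 with a median of -0.60 on the Cre control arrays, and from 0.17 to 1.23 with a median of 0.92 on the BRAFV600E arrays. Every BRAFV600E array lay above every Cre control array, and BRAFV600E 5 was the lowest of its group. The difference was 1.47 on the log2 scale (SE 0.19), or 2.77-fold, with an adjusted p of 0.00075 by limma. A second Psat1 probe, well above background on 5 of 6 Cre control arrays and 6 of 6 BRAFV600E arrays, differed by 0.59 in the same direction with overlapping groups and an adjusted p of 0.296, and the remaining probe was not well above background on any array.

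Phgdh, the dehydrogenase that commits the glycolytic intermediate to serine, ran from 1.36 to 2.11 (median 1.80) in Cre control and from 2.60 to 3.10 (median 2.72) in BRAFV600E. The groups did not overlap. The log2 fold change was 1.00 (SE 0.16, 1.99-fold, adjusted p = 0.0022 by limma). Shmt2, which splits serine into glycine and a folate-bound carbon in mitochondria, ran from 0.36 to 0.80 (median 0.59) in Cre control and from 1.26 to 1.87 (median 1.66) in BRAFV600E. Its log2 fold change was also 1.00 (SE 0.14, 1.997-fold, adjusted p = 0.00116 by limma), again with no overlap. A second Shmt2 probe was well above background on 2 of 6 Cre control and 1 of 6 BRAFV600E arrays and was not tested. Groups that did not overlap were found for 7.37% of all genes tested, and for these 3 of the 10.

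The 3 differences were close in size on the slide that held both groups. Within slide 1, with 2 BRAFV600E arrays against 6, the log2 fold changes were 1.48 for Psat1 (adjusted p = 0.0142 by limma), 0.92 for Shmt2 (0.0403) and 0.91 for Phgdh (0.0735), so the call of Phgdh was lost there. With slide as a block all 3 were called, at the same log2 fold changes. BRAFV600E 3 to 6 had no control on their slide and there added only to the estimate of spread. Every fit with slide as a block thus rests on BRAFV600E 1 and 2 against Cre control and is no second check. Markers of other cell types moved in the same comparison: 3 of 4 Paneth cell genes were called lower (median log2 fold change -2.05), 2 of 5 goblet cell genes were called lower (median -0.78) and 2 of 5 T cell genes were called lower (median -0.83). The Paneth calls and that of the goblet gene Muc2 held in 12 of 12 fits without 1 array. Those of the goblet gene Tff3 and the T cell genes Cd3g and Cd8a held in 4, 4 and 6, with adjusted p up to 0.0957 by limma. Of 6 enterocyte genes 1 was called higher, Alpi, a brush border phosphatase (1.84, adjusted p = 0.00225 by limma), the other 5 were below 0 without a call, and the list median was -0.42. All 5 smooth muscle genes were above 0 and 1 was called higher, Des, the muscle filament desmin (0.94, adjusted p = 0.0143 by limma), with a list median of 0.28. None of 6 plasma and B cell genes was called by limma (median -0.53), and 3 had an unadjusted p under 0.05. All 6 proliferation genes were above 0 and 1 was called higher, Cdk1, with a list median of 0.44 and a mean level between 0.769 and 1.467 in Cre control and between 1.166 and 1.722 in BRAFV600E. BRAFV600E 1 and 2, the mutant arrays of slide 1, had Paneth mean levels of 3.396 and 2.969, against 4.706 to 5.518 on BRAFV600E 3 to 6. Their T cell levels were -1.44 and -1.002, against -0.5758 to 0.1066, while their proliferation levels, 1.722 and 1.648, lay beside 1.166 to 1.687. For the enterocyte list BRAFV600E 2 stood apart at 5.265, with BRAFV600E 1 at 6.754. That list lay between 7.121 and 7.38 on BRAFV600E 3 to 6 and between 6.99 and 7.556 in Cre control. The mean level of 4 Y-linked genes was -1.241 and -1.063 on BRAFV600E 1 and 2. It was -1.039 and -0.9909 on BRAFV600E 3 and 6, and -5.824 and -4.917 on BRAFV600E 4 and 5. On the Cre control arrays it was -1.3 to -1.265 on 1 to 3 and -6.225 to -5.187 on 4 to 6. Read as sex, the groups were not balanced, though the methods give equal numbers of males and females. In fits within slide 1 or with slide as a block, slide, sex and tissue make-up therefore cannot be told apart. The part of the marker shifts in the rise of the serine enzymes was not tested.

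**Figure D1:**
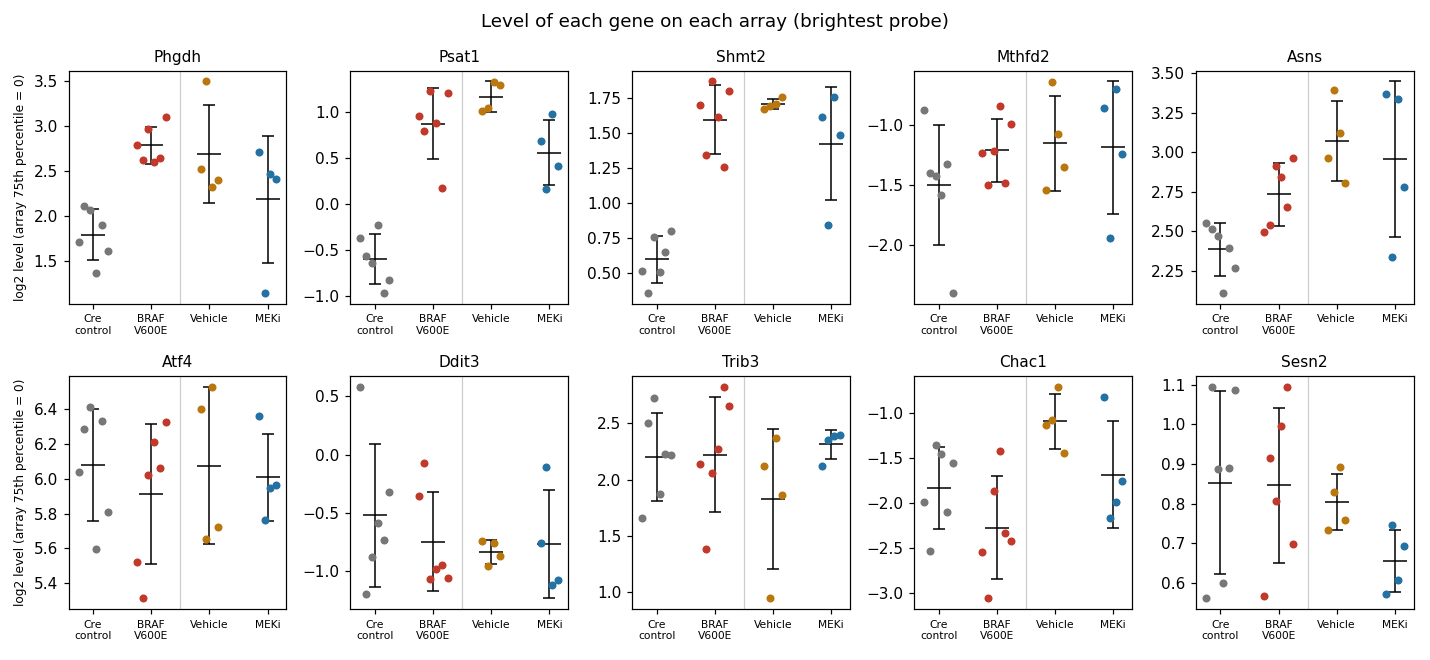
Level of each of the 10 genes (brightest probe) on every array, as log2 processed intensity minus the array's 75th percentile, in the 4 groups; each point is 1 array, and the bar and whiskers are the mean and SD. Phgdh, Psat1 and Shmt2 lie higher on all 6 BRAFV600E arrays than on any Cre control array, and Psat1 lies lower on all 4 MEKi arrays than on any Vehicle array; the vertical scale differs between panels.

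Mthfd2 and Asns, the other biosynthetic enzymes, were not called with their brightest probes. Mthfd2, a mitochondrial folate dehydrogenase, ran from -2.40 to -0.87 in Cre control and from -1.50 to -0.84 in BRAFV600E, a log2 difference of 0.29 (SE 0.22, adjusted p = 0.414 by limma), and its second probe differed by 0.14. Asns, which makes asparagine, ran from 2.11 to 2.55 (median 2.43) in Cre control and from 2.50 to 2.96 (median 2.75) in BRAFV600E. The groups overlapped, and the difference was 0.35 (SE 0.13, adjusted p = 0.093 by limma). It was 0.13 within slide 1.

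None of the stress genes passed the test in BRAFV600E, and their groups overlapped. Ddit3, the factor CHOP, ran from -1.19 to 0.58 (median -0.66) in Cre control and from -1.07 to -0.08 (median -0.96) in BRAFV600E, a difference of -0.23 (SE 0.29, adjusted p = 0.639 by limma). Its second probe differed by 0.02. Trib3, a pseudokinase that feeds back on ATF4, ran from 1.66 to 2.73 (median 2.22) in Cre control and from 1.38 to 2.83 (median 2.20) in BRAFV600E. Its difference was 0.02 (SE 0.25, adjusted p = 0.970 by limma). Sesn2, a leucine sensor that restrains mTORC1, ran from 0.560 to 1.095 (median 0.89) in Cre control and from 0.567 to 1.095 (median 0.86) in BRAFV600E, with a difference of -0.01 (SE 0.14, adjusted p = 0.980 by limma). Chac1, which degrades glutathione, ran from -2.54 to -1.36 (median -1.77) in Cre control and from -3.06 to -1.42 (median -2.38) in BRAFV600E, a difference of -0.44 (SE 0.28, adjusted p = 0.308 by limma). It was -0.98 within slide 1 (adjusted p = 0.151 by limma). The signs of the differences of Ddit3, Trib3 and Sesn2 turned under at least 1 other scaling or with slide as a block, and that of Chac1 turned without scaling between arrays.

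**Figure D2:**
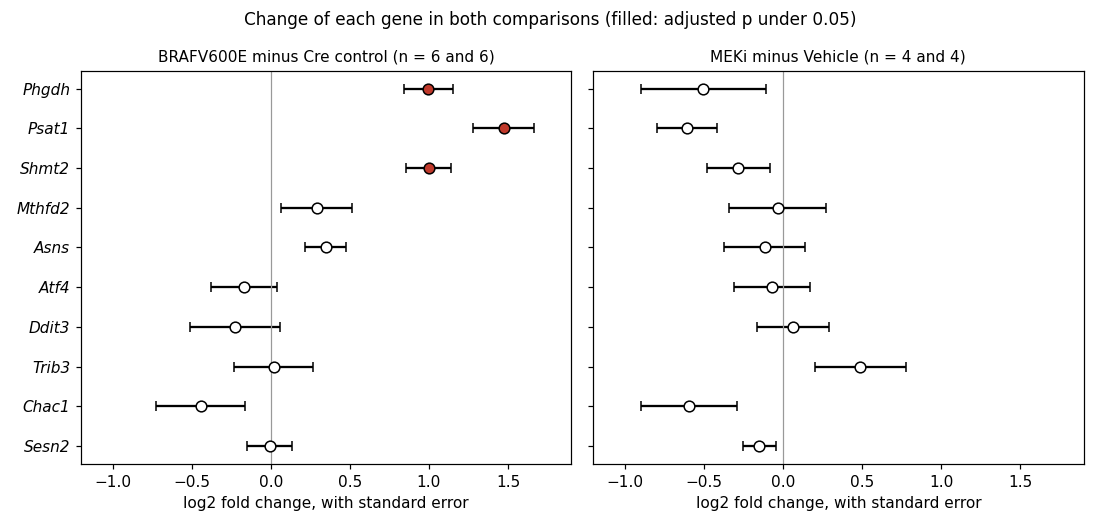
Log2 fold change of each gene (horizontal axis, with its standard error from limma) in BRAFV600E against Cre control (left, 6 arrays a group) and in MEKi against Vehicle (right, 4 arrays a group); filled points have an adjusted p under 0.05. Each point is from the brightest probe of its gene. Psat1, Phgdh and Shmt2 are filled at 1.47, 1.00 and 1.00 on the left, the stress genes lie near or below 0 there, and no point is filled on the right. The second probes of Atf4 and Asns, which differed by 0.73 and 0.76 in BRAFV600E and were called in the fit over all named probes, are not plotted.

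Both probes of Atf4 were well above background on all 12 arrays, and they differed in what they showed. Its brightest probe (mm9, chr15:80087902-80087961) ran from 5.60 to 6.41 (median 6.16) in Cre control and from 5.31 to 6.33 (median 6.04) in BRAFV600E. That difference was -0.17 (SE 0.21, adjusted p = 0.628 by limma), and -0.66 within slide 1, and it turned to 0.28 with the mean of both probes and to 0.64 without scaling between arrays. The other probe (mm9, chr15:80087079-80087138) ran from 0.77 to 1.60 (median 1.30) in Cre control and from 1.63 to 2.26 (median 2.05) in BRAFV600E, with no overlap. The difference there was 0.73 (SE 0.17), with an adjusted p of 0.0190 in the limma fit over all 31308 named probes tested, of which 10.1% were called. That call held in 12 of 12 fits that left out 1 array each, but it fell to 0.45 with slide as a block (adjusted p = 0.217 by limma).

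Asns also showed a gap between its probes, though a smaller one and with both probes higher in BRAFV600E. Its second probe, which the array places over 146 bases of genome at chr6:7626110-7626255 (mm9), against 60 for most probes, ran from -1.70 to -0.92 (median -1.29) in Cre control and from -1.04 to -0.08 (median -0.53) in BRAFV600E. The difference was 0.76 (SE 0.20, adjusted p = 0.0310 over all named probes by limma), against 0.35 for the brightest probe at chr6:7625171-7625228. Of the 12 fits without 1 array each, 6 kept the call. It was 0.79 with slide as a block (adjusted p = 0.122 by limma). Whether Atf4 or Asns counts as changed in BRAFV600E tissue therefore rests on the choice of probe and on the treatment of slide. Neither second probe was called with slide as a block or within slide 1.

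**Figure D3:**
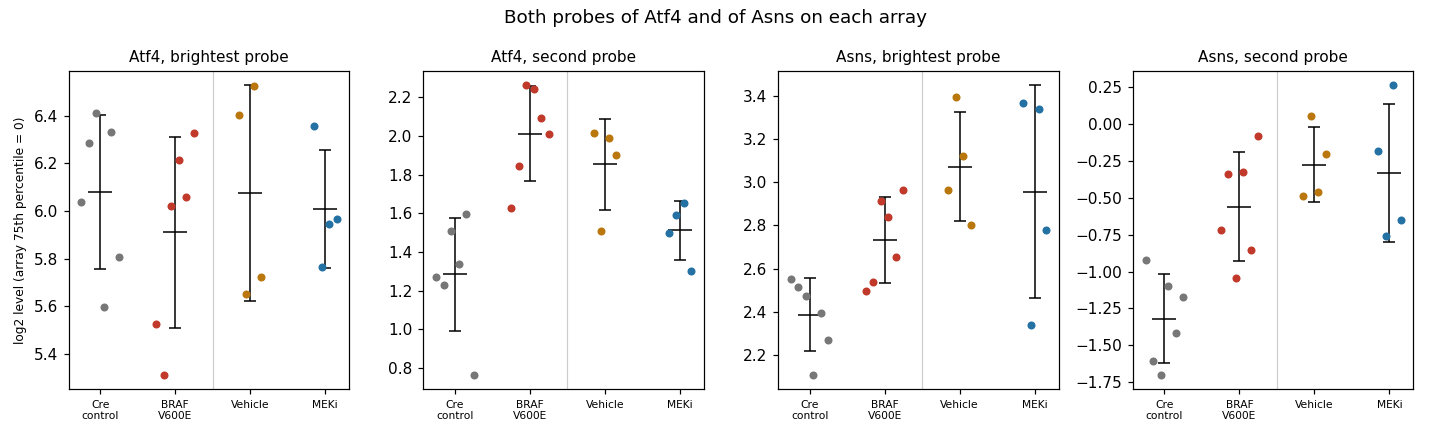
Level on every array from both probes of Atf4 (left pair of panels) and of Asns (right pair), as log2 processed intensity minus the array's 75th percentile; points are arrays, and the bar and whiskers are the mean and SD of a group. The second Atf4 probe separates BRAFV600E (1.63 to 2.26) from Cre control (0.77 to 1.60) while the brightest probe does not.

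The rest of the serine and folate pathway was read from a list of 18 further enzymes, of which 17 were tested. Of all genes tested in BRAFV600E, 12.5% were called in either direction. Of the 17 enzymes, 3 were called higher and none lower, and 12 of 17 were above 0, with a median of 0.20. They were Mthfd1l, which releases formate from mitochondrial folate (log2 fold change 1.16, SE 0.17, adjusted p = 0.00124 by limma), Shmt1, the cytosolic counterpart of Shmt2 (0.64, SE 0.14, 0.0132), and Psph, the phosphatase that ends serine synthesis (0.54, SE 0.13, 0.0178). Psph levels reached -0.21 at most in Cre control, and for none of the 3 did the groups overlap. With Phgdh, Psat1 and Psph, the 3 enzymes of serine synthesis were all called higher. Psph and Shmt1 were called in 12 of 12 fits without 1 array, but not with slide as a block (0.42 and 0.50, adjusted p = 0.155 and 0.130 by limma), where Mthfd1l was (1.19, 0.0126).

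Other ATF4 targets and partners were mixed. Of 18 tested, 3 were called higher and none lower, beside 12.5% of all genes in either direction, and the median was 0.03. Eif4ebp1, a repressor of cap-dependent translation, was higher by 1.13 (SE 0.13, adjusted p = 0.000243 by limma) with no overlap between the groups. Ddit4, an inhibitor of mTORC1, was higher by 0.76 (SE 0.20, 0.0276), and Pck2, a mitochondrial enzyme of phosphoenolpyruvate synthesis, by 0.49 (SE 0.11, 0.0163). The call of Ddit4 was lost without Cre control 3 or 5 or BRAFV600E 1, 3 or 6, where its adjusted p reached 0.0625, and those of Ddit4 and Pck2 were lost with slide as a block.

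Upstream of ATF4, 1 of 13 genes for eIF2 alpha kinases, phosphatase subunits and eIF2B was called, beside 12.5% of all genes tested. It was Eif2b1, a subunit of the exchange factor eIF2B (0.58, SE 0.16, adjusted p = 0.0332 by limma). Its call held in 5 of 12 fits without 1 array, with adjusted p up to 0.0743. None of 9 amino acid transporters was called by limma, and 2 had an unadjusted p under 0.05, as 30.1% of all genes tested in this comparison did. Slc38a2 and Slc43a1 had the largest differences, 0.89 and 0.61 (adjusted p = 0.160 and 0.112 by limma). None of 11 aminoacyl-tRNA synthetases was called either. Their median was 0.32, 10 of 11 were above 0, and 4 had an unadjusted p under 0.05, a share near that of all genes. Iars and Tars had the largest differences there, 0.53 and 0.50.

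Neighbouring stress programmes gave single calls, where 12.5% of all genes tested were called. Of 21 endoplasmic reticulum stress genes under ATF6 and XBP1, 1 was called, the disulphide isomerase Pdia3 (0.50, adjusted p = 0.0393 by limma), and the list median was -0.02. That call held in 4 of 12 fits without 1 array, with adjusted p up to 0.0858. Of 6 mitochondrial stress genes, 1 was called, the chaperonin Hspd1 (0.79, 0.0219), and it was lost without Cre control 3 (0.0514) and with slide as a block (0.0513). Chac2, a paralogue of Chac1 that also degrades glutathione, was the 1 called gene of 7 in glutathione synthesis and turnover (1.01, SE 0.18, 0.00518), and it was called in 12 of 12 fits without 1 array. Among 8 paralogues of the 10 genes, Chac2 and Shmt1 were called higher and Sesn1, also a p53 target, lower (-0.84, adjusted p = 0.0420 by limma). The call of Sesn1 held in 3 of 12 fits without 1 array, with adjusted p up to 0.0778. No other gene of 9 p53 targets was called.

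**Figure D4:**
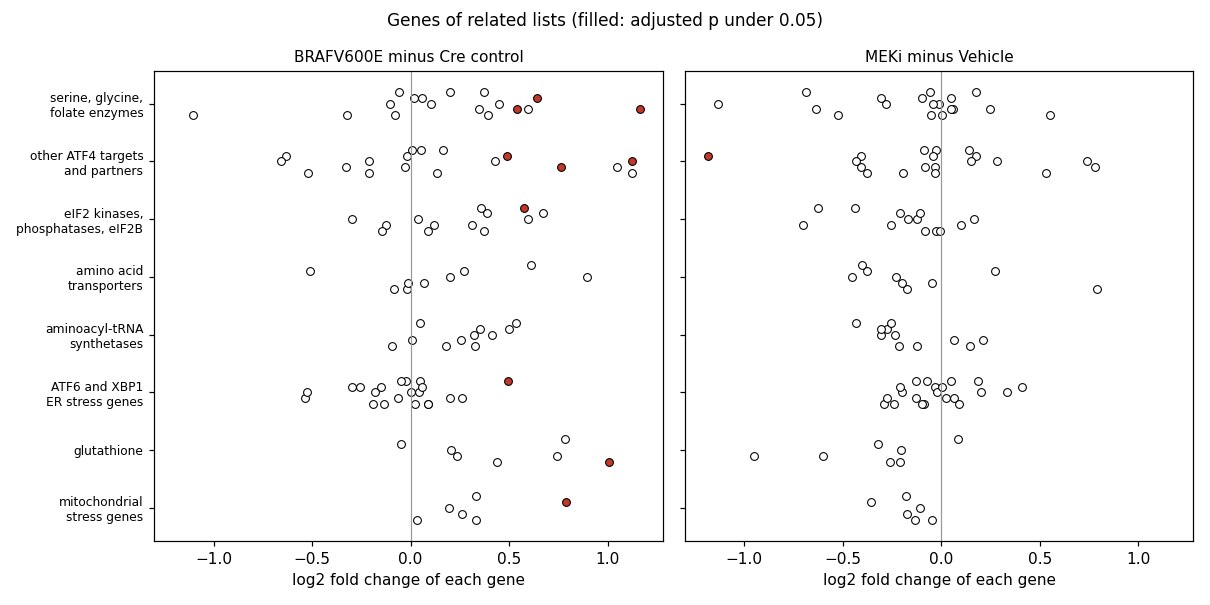
Log2 fold change of every tested gene of 8 related lists in BRAFV600E against Cre control (left) and MEKi against Vehicle (right); each point is a gene, filled where the adjusted p was under 0.05. On the left 3 serine, glycine and folate enzymes and 3 other ATF4 targets are filled to the right of 0, with Eif2b1, Pdia3, Chac2 and Hspd1 from the other lists, and on the right the only filled point is Eif4ebp1 at -1.18.

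Under the MEK inhibitor no gene of the 10 passed the test. By limma 0 of 10 were called, against 1.98% of 19226 genes over the whole comparison, 1.09% higher and 0.884% lower. An unadjusted p under 0.05 was found for 1 of the 10 and for 16.4% of all genes tested. In the fit over every named probe, in which 1.21% were called, none of the members' probes was. The median log2 fold change was -0.13, against 0.04 over all genes tested, and 8 of the 10 were below 0. The mean level of the 10 genes was 1.43 ± 0.116 in Vehicle and 1.25 ± 0.253 in MEKi (SD, n = 4 each). No cell type marker was called by limma either. All genes of the Paneth, goblet, T cell and smooth muscle lists were above 0, with medians of 0.91, 0.71, 0.78 and 0.67. The enterocyte, plasma and B cell and proliferation medians were 0.11, 0.14 and -0.20. The smooth muscle mean level was 1.331 on Vehicle 4 and 2.405 on Vehicle 2, against 3.728 and 3.791 on Vehicle 1 and 3. The part of these shifts in the values of the 10 genes was not tested.

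Psat1 came closest to the threshold. Its level was 1.01, 1.04, 1.33 and 1.29 on Vehicle 1 to 4 and 0.68, 0.16, 0.98 and 0.42 on MEKi 1 to 4. All 4 MEKi arrays lay below all 4 Vehicle arrays, as the groups did for 12.2% of all genes tested in one direction or the other. The difference was -0.61 (SE 0.19, adjusted p = 0.169 by limma). The second Psat1 probe differed by -0.08.

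Phgdh was 2.52, 3.50, 2.33 and 2.40 on Vehicle 1 to 4 and 2.71, 1.14, 2.47 and 2.41 on MEKi 1 to 4. The groups overlapped, and 1 array in each stood apart, Vehicle 2 high and MEKi 2 low. The difference was -0.50 (SE 0.39, adjusted p = 0.600 by limma). It was -0.23 without Vehicle 2, the array with the pancreas genes, and -0.16 without MEKi 2. Shmt2 was 1.67, 1.70, 1.71 and 1.76 on Vehicle 1 to 4 and 1.62, 0.84, 1.76 and 1.49 on MEKi 1 to 4. Its difference of -0.28 (SE 0.20, adjusted p = 0.554 by limma) was -0.09 without MEKi 2. MEKi 2 was the lowest of the MEKi arrays for 7 of the 10 genes.

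The stress genes did not pass the test under MEKi either, and their differences had both signs. Chac1 was -1.13, -1.08, -0.70 and -1.44 on Vehicle 1 to 4 and -0.82, -2.16, -1.98 and -1.76 on MEKi 1 to 4. MEKi 1 was the exception among the MEKi arrays, and the difference was -0.59 (SE 0.30, adjusted p = 0.387 by limma). Trib3 was 2.13, 0.94, 2.37 and 1.86 on Vehicle 1 to 4 and between 2.12 and 2.40 on the MEKi arrays. Vehicle 2 was the lowest of all 8 for Trib3, and the difference was 0.49 (SE 0.29, adjusted p = 0.470 by limma). Without Vehicle 2, the array with the pancreas genes, the Trib3 difference was 0.19. Sesn2 lay between 0.73 and 0.89 in Vehicle and between 0.57 and 0.74 in MEKi, a difference of -0.15 (SE 0.11). Ddit3, Asns, Mthfd2 and the brightest Atf4 probe differed by 0.06, -0.12, -0.03 and -0.07. The second Atf4 probe differed by -0.34, with 1.51 to 2.02 in Vehicle and 1.30 to 1.65 in MEKi (adjusted p = 0.380 over all named probes by limma).

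Of the related lists, 1 gene was called under MEKi, Eif4ebp1. It ran from 3.71 to 3.97 in Vehicle and reached 2.89 at most in MEKi, a log2 fold change of -1.18 (SE 0.15, adjusted p = 0.0116 by limma), and it was called in 8 of 8 fits without 1 array, though not with the array column (0.0767) or the level of Y-linked genes (0.0695) as a covariate, and it was called in 16 of 19 alternatives, with adjusted p up to 0.123. Mthfd1l lay just outside the threshold at -1.14 (SE 0.23, adjusted p = 0.0510 by limma), with no overlap between the groups. Shmt1 differed by -0.69 (adjusted p = 0.127 by limma) and Psph by -0.01 (0.979). The 18 serine, glycine and folate enzymes tested had a median of -0.05. Upstream of ATF4 none of 13 genes was called by limma and 3 had an unadjusted p under 0.05, beside the 16.4% of all genes. The largest differences were those of Eif2b3 (-0.70, adjusted p = 0.0773) and Eif2s1, the alpha subunit of eIF2 (-0.63, 0.0549), with no overlap between the groups of either. Gclc, which catalyses the first step of glutathione synthesis, differed by -0.95 (adjusted p = 0.0519 by limma), and none of 7 glutathione genes was called, with 2 at an unadjusted p under 0.05. Among transporters, synthetases and endoplasmic reticulum stress genes none was called by limma, and 1 of 9, 2 of 11 and 2 of 21 had an unadjusted p under 0.05, near or under the share of all genes. The largest differences there were Slc6a9 at 0.79, Iars at -0.43 and Ern1 at 0.41. The 4 Y-linked genes had a median log2 fold change of 2.74 in this comparison, with none called. Their mean level was -5.944 on Vehicle 2 and -6.25 on Vehicle 4, against -1.212 and -1.244 on Vehicle 1 and 3. On the MEKi arrays it lay between -1.292 and -0.9631. Read as sex, Vehicle mixed both sexes and MEKi held males only, so sex was not balanced between the groups. With the level of the Y-linked genes as a covariate Psat1 differed by -0.60 (adjusted p = 0.406 by limma).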

How the data were processed

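The 20 arrays were 1-colour Agilent SurePrint G3 Mouse arrays. Per the file headers, the authors extracted them with Agilent Feature Extraction 10.5.1.1, which subtracted background and wrote a processed intensity per spot on a linear scale, with marks of 0 or 1 for spots well above background. The deposited intensity was not normalized between arrays. Groups came from the labels, and replicate numbers pair no arrays. Log2 processed intensity minus each array's 75th percentile was analysed, without control and outlying spots. Of the probes, 44334 were named, and the array's coordinates are on mm9. Between 60.8% and 76.8% of spots were well above background, and precision is limited by how many arrays there were. The brightest probe of a gene was tested where at least 6 of 12 or 4 of 8 arrays had it well above background, with lmFit and eBayes of limma 3.58.1 in R 4.3.3 and Benjamini-Hochberg adjustment over all genes tested. The fit was tested on simulated data. The members, lists and tests were chosen with earlier results of these data known. The genes named were the 10 members with every probe, Braf, up to 4 called genes of each list or else up to 2 with the largest change, and the 5 genes most like the members' mean. Mars was not matched on the array. Alternatives were other background corrections, scalings, filters and probe rules, slide, column, Y-linked level and array weights, and leaving out each array. Those for the second Atf4 and Asns probes were chosen after seeing the data. The treatment text of the labels, the same for all 20 arrays, was not used. Per the methods the first experiment used 12 mice, 6 a group, and every sample of both experiments has a number of its own in its title, so each array was taken as 1 mouse.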

Additional observations from a re-analysis of the deposited data

Results flagged for a closer look

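The level of Phgdh on Vehicle 2 was 3.499, far from the other 3 Vehicle arrays, whose values lay between 2.327 and 2.525. The gap to the nearest of them was 0.831 of the range of the group. Of 40 groups of values examined, this was the 1 found, and chance alone gives about 1 in 20. The same array held the high signal of exocrine pancreas genes given above.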

How the results depend on the processing

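No paired analysis was possible because the replicate numbers only name the arrays. The count of 3 called genes in BRAFV600E was 3 in every fit that left out 1 array (3 to 3), 4 with the mean of a gene's probes, 2 within slide 1 and 7 without scaling between arrays, where the mean level differed by 1.14 in place of 0.33. Under MEKi the mean level differed by -0.18, and by -0.26 to -0.069 without 1 array, the smallest without MEKi 2. Without scaling the median of all genes moved to 0.79 and 98.1% of calls were higher (49.7% with scaling, 34.3% with normexp, 30.2% with slide as a block and 24.9% within slide 1). The count of 0 under MEKi was 0 under every alternative run. Psat1 and Shmt2 were called in 24 of 24 alternatives and Phgdh in 23, with log2 fold changes of 1.03 to 2.28, 0.92 to 1.81 and 0.90 to 1.81. Without scaling, Asns (1.16), Mthfd2 (1.099) and Trib3 (0.83) became called, and Asns also with the mean of its probes (0.55). All genes called numbered 2372, and 4647 with normexp, 3747 with array weights, 1535 with slide as a block and 746 within slide 1; under MEKi 380, and 1221 with weights, 53 with the Y-linked level, 16 with the column, 234 without the filter and 72 without scaling. In the fits over all genes that left out 1 array, called genes numbered 1447 to 2888 and 83 to 371.

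Of 430 values of single genes, 389 kept their direction and side of the threshold and 36 turned their sign, all but that of Sesn2 without scaling with no call on either side. In BRAFV600E these were Atf4 (0.28 with the mean of probes, 0.64 without scaling), Chac1 (0.37 without scaling), Ddit3 (0.58 without scaling, 0.31 with slide as a block and 0.31 within slide 1), Sesn2 (0.80 without scaling, which was called, 0.11 with normexp, 0.018 with the Y-linked level, 0.0031 with array weights and -0.066 to 0.049 without 1 array) and Trib3 (-0.026 with array weights, -0.056 with quantile normalization, -0.44 with slide as a block and within slide 1, and -0.10 to 0.19 without 1 array). Under MEKi they were Asns (0.015 with array weights, -0.25 to 0.090 without 1 array), Atf4 (0.065 with quantile normalization, -0.21 to 0.084 without 1 array), Ddit3 (-0.034 with the Y-linked level, -0.13 with array weights, -0.15 to 0.18 without 1 array) and Mthfd2 (0.13 with the Y-linked level, 0.21 with array weights, -0.195 to 0.22 without 1 array). Leaving out MEKi 2 turned all 4 of these. The cause was not tested.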

Other observations

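Among 18182 genes outside all lists, the 5 whose level over the 20 arrays was most like the mean level of the 10 genes, after the mean of each experiment was subtracted, were Mrto4 (Pearson r = 0.902), a ribosome assembly factor, Eftud2 (0.895), a GTPase of the spliceosome, Ccne1 (0.879), a cyclin of S phase entry, Cad (0.875), which starts pyrimidine synthesis, and Inf2 (0.872), a formin. The arrays share their groups and the correlation is a description. With the mean of each group subtracted instead, r was 0.894, 0.791, 0.869, 0.799 and 0.752. Of these, Cad was higher in BRAFV600E by 0.75 on the log2 scale (adjusted p = 0.0112 by limma) and Inf2 by 0.99 (adjusted p = 0.0226 by limma). None of the 5 was called under MEKi by limma, where their differences lay between -0.74 for Cad and -0.19 for Eftud2.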
